A study of Mus musculus with 4 samples.

Results

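The genes described here are 10 regulators and markers of skeletal muscle, measured in primary mouse embryonic fibroblasts. Members were all probe sets annotated with exactly 1 gene symbol among Myod1, Myf5, Myog, Chrna1, Chrng, Chrnd, Ckm, Actc1, Mef2c and Des, which gave 19 of 45101 probe sets, and each of the 10 genes had at least 1. On an Affymetrix array, several short probes aimed at 1 transcript are read together as a probe set. The arrays came from wild-type fibroblasts and from RBP2-/- fibroblasts, called RBP2-null below. There were 2 lines of each genotype at passage 3 and 1 array per line, so each group rests on 2 lines. The RBP2 allele, the mouse strain and the embryonic age are not given in the sources used here. RBP2 is retinoblastoma binding protein 2, a demethylase of histone H3 lysine 4 whose gene is now called Kdm5a, and the series compares transcript levels with and without it.

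Myod1, Myf5 and Myog encode basic helix-loop-helix transcription factors of the MyoD family. They pair with widely expressed E proteins, bind E-boxes in the promoters and enhancers of muscle genes and can turn fibroblasts into muscle cells when introduced into them. Myf5 and Myod1 act early in commitment to the lineage and Myog in terminal differentiation, and Mef2c, a MADS-box factor, acts together with them. Chrna1, Chrng and Chrnd encode the alpha, gamma and delta subunits of the muscle acetylcholine receptor, of which gamma belongs to the foetal form. Ckm encodes muscle creatine kinase, Actc1 encodes cardiac alpha-actin, which embryonic skeletal muscle also makes, and Des encodes the intermediate filament protein desmin. Mef2c is also made by endothelial and neural cells, and desmin by smooth muscle. The retinoblastoma protein, the partner for which RBP2 was named, is known to take part in MyoD-driven muscle differentiation.

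The E-box is the letter pattern through which the MyoD family reads its targets. The promoter windows of 4 members with measured signal are shown. Those of Chrng, Ckm and Des hold E-boxes, while that of Actc1 holds none and is shown for another site. Windows of other members, some with E-boxes, are not shown. The RefSeq promoter table of GRCm38.p6 held 8 of the 10 genes, all but Myod1 and Chrnd, in 10 windows, and the 250 bases before each annotated start were searched. Capitals mark E-boxes, written CANNTG, and in Actc1 the CArG box, the site of serum response factor. The CArG box was written CCWWWWWWGG, with W for A or T, and only exact matches to each pattern were counted. Both strands were searched, and CAGCTG is 1 form of the E-box and overlaps it by definition.
Chrng, chr1:87205561-87205810, plus strand: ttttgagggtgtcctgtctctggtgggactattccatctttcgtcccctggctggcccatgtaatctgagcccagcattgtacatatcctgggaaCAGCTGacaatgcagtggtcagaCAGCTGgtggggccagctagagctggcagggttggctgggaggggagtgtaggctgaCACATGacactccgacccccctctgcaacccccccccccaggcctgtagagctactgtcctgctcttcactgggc
Ckm, chr7:19410844-19411093, plus strand: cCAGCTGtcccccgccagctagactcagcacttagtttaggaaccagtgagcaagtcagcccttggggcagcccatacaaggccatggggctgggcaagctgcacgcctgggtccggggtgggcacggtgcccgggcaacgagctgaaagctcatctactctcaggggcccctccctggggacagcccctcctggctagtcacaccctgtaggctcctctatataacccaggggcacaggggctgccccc
Des, chr1:75360042-75360291, plus strand: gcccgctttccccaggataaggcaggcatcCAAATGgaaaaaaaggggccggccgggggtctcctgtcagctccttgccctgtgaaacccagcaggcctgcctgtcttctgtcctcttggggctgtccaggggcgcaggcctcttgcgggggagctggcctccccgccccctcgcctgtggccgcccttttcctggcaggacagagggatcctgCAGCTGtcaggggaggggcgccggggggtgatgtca
Actc1, chr2:114052876-114053125, minus strand: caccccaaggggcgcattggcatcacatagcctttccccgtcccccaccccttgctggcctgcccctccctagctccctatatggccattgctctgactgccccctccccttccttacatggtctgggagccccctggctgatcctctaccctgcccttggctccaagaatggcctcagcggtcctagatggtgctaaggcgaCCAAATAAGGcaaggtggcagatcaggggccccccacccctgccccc
An E-box was found in 7 of the 10 member windows, and 66.2% of all 32851 windows of the table held at least 1. The CAGCTG form lay in 4 member windows, those of Chrna1, Chrng, Ckm and Des, against 13% of all windows. Chrng held CAGCTG at 155 and 132 bases before its start, and Des at 36 bases. The exact CArG match of Actc1 lay 47 bases before the start, and 1.47% of all windows held one. Near matches such as CCTTACATGG in the same window were not marked. A site of the MEF2 factors was also searched for, written YTAWWWWTAR, with Y for C or T and R for A or G. An exact match was found in 0 of the 10 member windows, and 2.92% of all windows held one. Near matches were not counted, such as CTATATTTAT in the Myog window, which departs from the pattern at its last base. The count therefore does not show that these windows lack MEF2 sites. These matches describe the letters only, and no binding was measured in this series.

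Overall brightness differed between the deposited arrays. The median deposited signal ran from 21.5 to 43.7 over the 4 arrays, and RBP2-null replicate 2 was the brightest. Values were therefore quantile normalized, and are given on the scale log2(normalized signal + 9), where 9 is a pseudocount that shrinks the differences of dim probe sets. The upper 60% of probe sets by mean over all 4 arrays, 27022 of 45037 that are not controls, were kept for testing. Wild-type replicate 1 stood apart, with a correlation across kept probe sets of at most 0.928 with any other array, while each other array reached 0.951 or 0.965 with another. For Actb, the control of RNA integrity, signal at the 3' end was 1.02 to 1.14 times that at the 5' end. Nothing beyond the word line in the labels says how the lines were raised, so the p-values cover no spread beyond that of the lines at hand, which may be technical. With 2 lines per genotype, 0.333 is the smallest two-sided p that an exact permutation test allows. Kdm5a itself had 6.72 in wild-type replicate 1, 7.65 in wild-type replicate 2, 6.40 in RBP2-null replicate 1 and 6.49 in RBP2-null replicate 2 on its brightest probe set. Another Kdm5a probe set had 5.84, 6.39, 4.52 and 5.21 in the same order (log2 fold change -1.24, SE 0.41), and 3 further kept ones had -0.25, 0.15 and 0.24. None of them passed the threshold, and since the labels do not name the deleted part of the gene, a probe set outside it would check nothing.

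Most muscle members were dim. Of the 19 member probe sets, 12 had a deposited signal under 50 on every array and 16 had one under 100 on every array. The highest of the 76 values was 149.4, that of Actc1 in RBP2-null replicate 2. None of the 76 values was 0, and 29 lay below the pseudocount of 9. Calls of presence or absence are not part of the values used here, so a low signal is not evidence that a transcript was absent, and brightness does not compare transcript amounts between probe sets. The filter kept 10 of the 19 probe sets, from 6 of the 10 genes, and left out every probe set of Myf5, Myog, Chrna1 and Chrnd. These 4 of 10 genes, or 40%, compare with 28% of all 18193 genes on the array. In such whole-culture RNA, fewer cells of a type and less RNA per cell cannot be told apart.

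**Figure D1:**
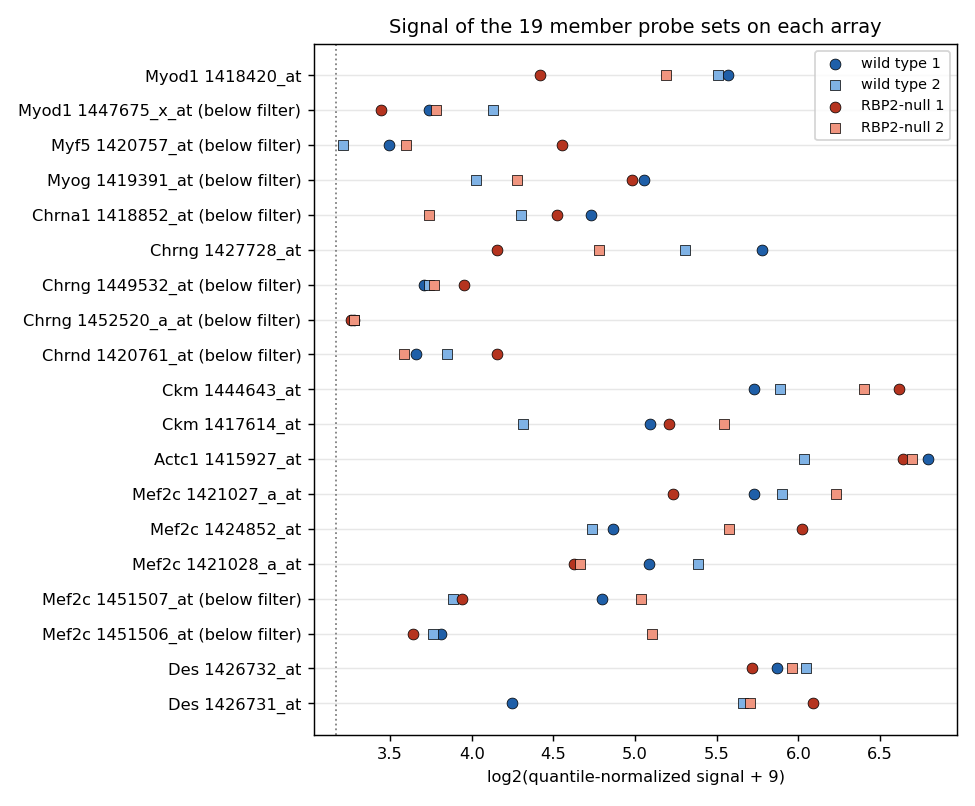
Signal of the 19 member probe sets on each array, as log2(quantile-normalized signal + 9), with 1 point per line, the words below filter beside probe sets that were not tested, and a dotted line at the value of a signal of 0. Most points lie under 6, and Actc1 in wild-type replicate 1 reaches the highest value, 6.79.

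No member passed the threshold, a limma adjusted p of 0.05 over all 27022 kept probe sets, in either direction: 0 of 10 kept probe sets, where 0.0037% of all kept probe sets passed. At an unadjusted limma p under 0.05 there were 3 of the 10, namely 1 probe set each of Mef2c, Ckm and Chrng, against 2.98% of all kept probe sets. Without the filter this count was 0 of 19, where 1653 of all 45037 probe sets lay under 0.05. Without scaling it was 0 of 10, where 189 of 27022 did. With the replicate number as a block it was 4 of 10, where 1772 of 27022 did. The count of members past the threshold was 0 in each case. The sizes of these differences with an array left out are given with each gene below. In the main fit, each of the 10 kept probe sets had a limma adjusted p of 0.9998. Estimates lay above 0, that is higher in RBP2-null cells, for 5 and below 0 for 5. Their median log2 fold change was 0.087, against 0.0031 over all kept probe sets. The median over all 19 was 0.11, against -0.0037 over all probe sets without the filter.

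The genotypes did not overlap, with both RBP2-null values above or both below the wild-type pair, for 7 of the 10 kept member probe sets, 4 higher and 3 lower, and this held for 29.5% of all kept probe sets. Without the filter it held for 9 of the 19, 6 higher and 3 lower, against 30.5% of all probe sets. These are not independent counts, since Ckm and Mef2c each contribute 2 of the 7. The 2 Mef2c probe sets lay on opposite sides. With each gene read on its brightest probe set, as in the lists below, 3 of the 6 kept genes did not overlap, 1 higher and 2 lower. On that basis 2 estimates lay above 0 and 4 below, and the median log2 fold change was -0.10. Of the 10 kept probe sets, 4 had a genotype difference larger than the gap between lines within either genotype, against 17.5% of all kept probe sets. With the deposited values 6 of the 10 did not overlap, against 16.7%, and with arrays centred on their medians 8 of 10, against 31.7%. With wild-type replicate 1 left out, it was 8 of the 9 still kept, against 60.2%. In the upper 40% of probe sets 1 of the 4 members left did not overlap, against 28%.

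**Figure D2:**
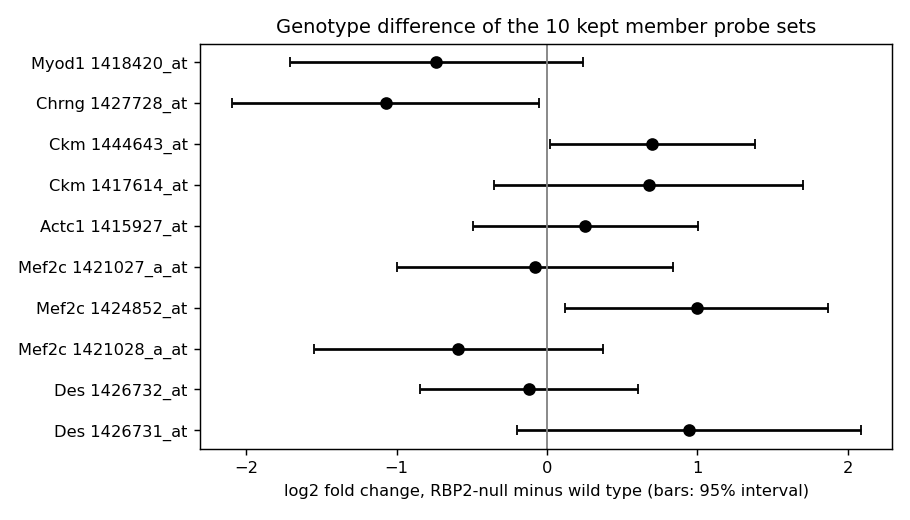
Log2 fold change of the 10 kept member probe sets, RBP2-null minus wild type, with 95% intervals from the limma fit on 2 lines per genotype. The intervals of Chrng 1427728_at, Ckm 1444643_at and Mef2c 1424852_at lie on 1 side of 0 before adjustment, and the other 7 include 0.

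Among the MyoD family, Myod1 gave a signal in the tested range. Its brighter probe set, 1418420_at, gave deposited signals of 28.8 in wild-type replicate 1, 36.6 in wild-type replicate 2, 8.9 in RBP2-null replicate 1 and 40.9 in RBP2-null replicate 2. After normalization the values were 5.57, 5.51, 4.42 and 5.19 in the same order. The wild-type lines were close to each other, RBP2-null replicate 1 was the lowest, and the normalized values did not overlap between genotypes while the deposited ones did. The genotype difference was a log2 fold change of -0.74 (SE 0.43, 95% interval -1.71 to 0.24), or -0.36 without RBP2-null replicate 1. The dimmer Myod1 probe set, 1447675_x_at, had 3.6, 8.9, 1.3 and 6.8 as deposited and was left out by the filter. Its fitted log2 fold change without the filter was -0.32 (SE 0.29).

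Myf5, an early commitment factor, gave signals near or below the pseudocount. Its 1 probe set gave deposited signals of 2 in wild-type replicate 1, 0.3 in wild-type replicate 2, 10.5 in RBP2-null replicate 1 and 4.4 in RBP2-null replicate 2. Both RBP2-null lines were above both wild-type lines, yet 3 of these signals lay below the pseudocount. Without the filter the log2 fold change of Myf5 was 0.72 (SE 0.35), with a limma adjusted p of 1.00.

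Myog, the factor of terminal differentiation, did not separate the genotypes. Its deposited signals were 19 in wild-type replicate 1, 7.7 in wild-type replicate 2, 16.5 in RBP2-null replicate 1 and 15.1 in RBP2-null replicate 2. On the normalized log2 scale it had 5.05, 4.03, 4.98 and 4.27 in the same order, so the line numbered 1 was above the line numbered 2 in each genotype. Its log2 fold change without the filter was 0.086 (95% interval -1.17 to 1.34).

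Mef2c, the partner of the MyoD family, had 5 probe sets that differed in direction. Probe set 1424852_at gave deposited signals of 16 in wild-type replicate 1, 17.9 in wild-type replicate 2, 41.3 in RBP2-null replicate 1 and 58.8 in RBP2-null replicate 2. Both RBP2-null lines were above both wild-type lines, before and after normalization. Normalized values were 4.80 ± 0.090 (SD, n = 2) for the wild-type pair against 5.80 ± 0.31 (SD, n = 2) for the RBP2-null pair. This gave a log2 fold change of 0.99 (SE 0.38, 95% interval 0.12 to 1.87), and its unadjusted limma p of 0.031 was the smallest among the kept members. It did not pass after adjustment, and with each array left out in turn the value stayed between 0.79 and 1.13.

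The brightest Mef2c probe set, 1421027_a_at, had 32.1, 51.1, 20.9 and 103.2 as deposited, in the order wild-type replicates 1 and 2, then RBP2-null replicates 1 and 2. Its RBP2-null lines were the lowest and the highest of the 4. Its log2 fold change was -0.080 (SE 0.40), and it was 0.42 without RBP2-null replicate 1, 0.0026 without wild-type replicate 2 and -0.54 without RBP2-null replicate 2. With arrays centred on their medians it was 0.020, where the median over all kept probe sets had shifted to 0.18, and relative to that shift it was -0.16. Probe set 1421028_a_at had 19.6, 32.7, 11.4 and 23.9 as deposited, and its normalized values were lower in both RBP2-null lines, with a log2 fold change of -0.59 (SE 0.42). The remaining Mef2c probe sets, 1451507_at and 1451506_at, were left out by the filter and were highest in RBP2-null replicate 2, at 35.2 and 37.7 as deposited. On the other arrays they had 14.9, 6.1 and 4.4, and 4.1, 4.8 and 2.4. Their log2 fold changes without the filter were 0.15 (SE 0.55) and 0.58 (SE 0.50). Which Mef2c transcripts each probe set reads was not examined.

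Of the 3 receptor subunits among the members, only Chrng had a kept probe set. Chrnb1, the beta subunit, is no member and was kept, with a log2 fold change of -0.060 (SE 0.31). Chrng 1427728_at gave deposited signals of 33.2 in wild-type replicate 1, 30.6 in wild-type replicate 2, 6.2 in RBP2-null replicate 1 and 27.1 in RBP2-null replicate 2. RBP2-null replicate 1 was far below the other arrays, and the genotypes did not overlap. The normalized means were 5.54 ± 0.33 (SD, n = 2) for the wild-type pair against 4.47 ± 0.45 (SD, n = 2) for the RBP2-null pair. The fit gave a log2 fold change of -1.07 (SE 0.45, 95% interval -2.10 to -0.051), and the unadjusted limma p of 0.042 did not pass after adjustment. Without RBP2-null replicate 1 the value was -0.77, and without wild-type replicate 1 the probe set fell below the filter.

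Other Chrng probe sets did not share this pattern. Chrng 1449532_at had 3.4 and 4.6 in wild-type replicates and 4.5 and 6.6 in RBP2-null replicates, and 1452520_a_at had 0.7, 0.7, 0.4 and 0.9. Without the filter their log2 fold changes were 0.13 (SE 0.26) and -0.0094 (SE 0.15). Both lay below the pseudocount on every array, where the scale can show little difference. Chrna1 gave deposited signals of 13.9 in wild-type replicate 1, 11.1 in wild-type replicate 2, 10.2 in RBP2-null replicate 1 and 6.3 in RBP2-null replicate 2. Both RBP2-null lines were below both wild-type lines as deposited, and the values overlapped after normalization, with a log2 fold change without the filter of -0.38 (SE 0.45). Chrnd had 3.1, 5.7, 6.2 and 4.2, which overlapped between genotypes, and its log2 fold change without the filter was 0.11 (SE 0.31).

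Among the metabolic and structural genes, the probe sets of Ckm had estimates on the same side of 0. Ckm 1444643_at gave deposited signals of 32.2 in wild-type replicate 1, 50.6 in wild-type replicate 2, 66.9 in RBP2-null replicate 1 and 118.4 in RBP2-null replicate 2. Both RBP2-null lines were above both wild-type lines, and the normalized means were 5.81 ± 0.11 (SD, n = 2) and 6.51 ± 0.15 (SD, n = 2). The genotype difference was a log2 fold change of 0.70 (1.63-fold, SE 0.30, 95% interval 0.020 to 1.38). The unadjusted limma p was 0.045 and did not pass after adjustment, and with each array left out the value stayed between 0.59 and 0.77.

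Ckm 1417614_at had 19.7 and 11.2 in wild-type replicates and 20.4 and 57.3 in RBP2-null replicates as deposited. The genotypes did not overlap, with wild-type replicate 1 close to RBP2-null replicate 1. This gave a log2 fold change of 0.67 (SE 0.45), and it became 0.29 with wild-type replicate 2 left out and 1.10 with replicate 1 left out. Estimates for both Ckm probe sets lay above 0, and neither passed the threshold.

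Actc1, cardiac alpha-actin, was the brightest member. Its deposited values were 64.9 in wild-type replicate 1, 57.1 in wild-type replicate 2, 68.3 in RBP2-null replicate 1 and 149.4 in RBP2-null replicate 2. After normalization they were 6.79, 6.03, 6.64 and 6.70, so wild-type replicate 1 was the highest and the genotypes overlapped. Its log2 fold change was 0.25 (SE 0.33, 95% interval -0.50 to 1.00). Without wild-type replicate 2 its direction turned, to -0.13, while leaving out wild-type replicate 1 gave 0.66.

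The probe sets of Des, the desmin gene, gave unlike estimates. Des 1426732_at gave deposited signals of 35.4 and 57.8 in wild-type replicates and 31.9 and 82.3 in RBP2-null replicates, which overlapped, with a log2 fold change of -0.12 (SE 0.32). Without RBP2-null replicate 1 its value was 0.0038. Des 1426731_at had 7.9, 41.7, 43.7 and 66 in the order wild-type replicates 1 and 2, then RBP2-null replicates 1 and 2. Wild-type replicate 1 was far below the other arrays, and the log2 fold change was 0.94 (SE 0.50). Without wild-type replicate 1, the array that stood apart over all probe sets, the value was 0.25, against 1.66 with wild-type replicate 2 left out.

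**Figure D3:**
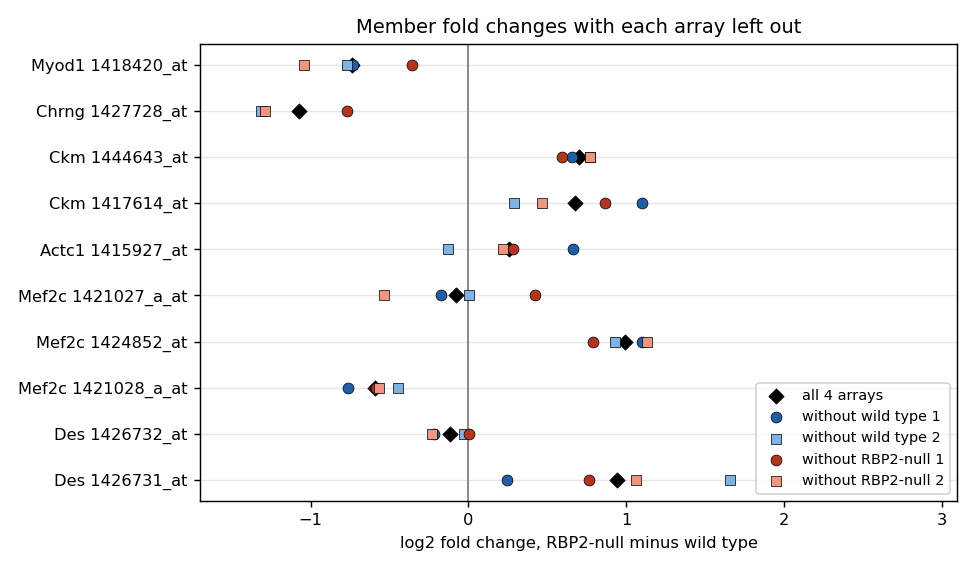
Log2 fold change of the 10 kept member probe sets, RBP2-null minus wild type, with all 4 arrays (diamonds) and with each array left out in turn. Ckm 1444643_at and Mef2c 1424852_at stay on the right of 0 at similar sizes, Des 1426731_at moves from 0.25 to 1.66, and no point is drawn for Chrng 1427728_at without wild-type replicate 1, where it fell below the filter.

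Other genes of the muscle programme were taken from lists, with each gene read on its brightest probe set. Of 27 further myogenic regulators with a probe set, such as E proteins and Id inhibitors, 20 were kept and 0 passed the threshold in either direction. No Pax factor was among the 20. Their median log2 fold change was 0.16, with 15 estimates above 0 and 5 below, and 6 did not overlap between genotypes, 4 higher and 2 lower, where the share of all kept probe sets was 29.5%. Mef2b, another MADS-box factor, had 0.66 (SE 0.44), and Twist1, a helix-loop-helix factor that holds MyoD in check, had 0.40 (SE 0.28). Snai2, a zinc finger repressor, had -0.31 (SE 0.21), and Eya1, a coactivator of homeobox factors, had 0.39 (SE 0.29).

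Genes of the neuromuscular synapse were kept for 6 of 10, with 0 past the threshold, 1 estimate above 0, 5 below, and a median of -0.15. Colq, the collagen tail of acetylcholinesterase, had a log2 fold change of -0.67 (SE 0.45). Dok7, an activator of the synaptic kinase MuSK, had -0.52 (SE 0.47), and the agrin receptor Lrp4 had 0.40 (SE 0.39). The dystrophin relative Utrn had -0.21 (SE 0.23). Of the 6 kept genes, 1 was higher and 1 lower without overlap between genotypes, where 29.5% of all kept probe sets did not overlap. Normalized signals of the 10 synapse genes summed to 850.3 to 915.1 in wild type and 734.3 to 826.7 in RBP2-null cells, which did not overlap. Utrn, the brightest of the kept genes, overlapped by itself. How often sums over other sets of genes fail to overlap was not tested.

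Genes of the sarcomere, its membrane and its calcium release held the largest share of dim genes among these lists. The brightest probe set fell below the filter for 40 of 61 such genes, or 65.6%, against 28% of all genes. Of the 21 kept, 0 passed the threshold, 10 estimates lay above 0 and 11 below, and the median log2 fold change was -0.014. Casq1, the calcium store protein of fast fibres, had -0.68 (SE 0.36), and its deposited signals were 45.1 in wild-type replicate 1, 44.4 in wild-type replicate 2, 19.7 in RBP2-null replicate 1 and 52 in RBP2-null replicate 2. Tnnc1, slow troponin C, had 0.59 (SE 0.38), Actn3, the alpha-actinin of fast fibres, had 0.95 (SE 0.62), and Jph1, a junctophilin, had -0.56 (SE 0.39). Acta1, skeletal alpha-actin, was chosen here after its values were seen. Its deposited signals were 390.5 in wild-type replicate 1, 303.6 in wild-type replicate 2, 961.3 in RBP2-null replicate 1 and 356.3 in RBP2-null replicate 2. The normalized value of Acta1 was higher in the line numbered 1 of each genotype, at 9.39 against 8.25 and 10.16 against 7.88, and the genotypes overlapped.

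**Figure D4:**
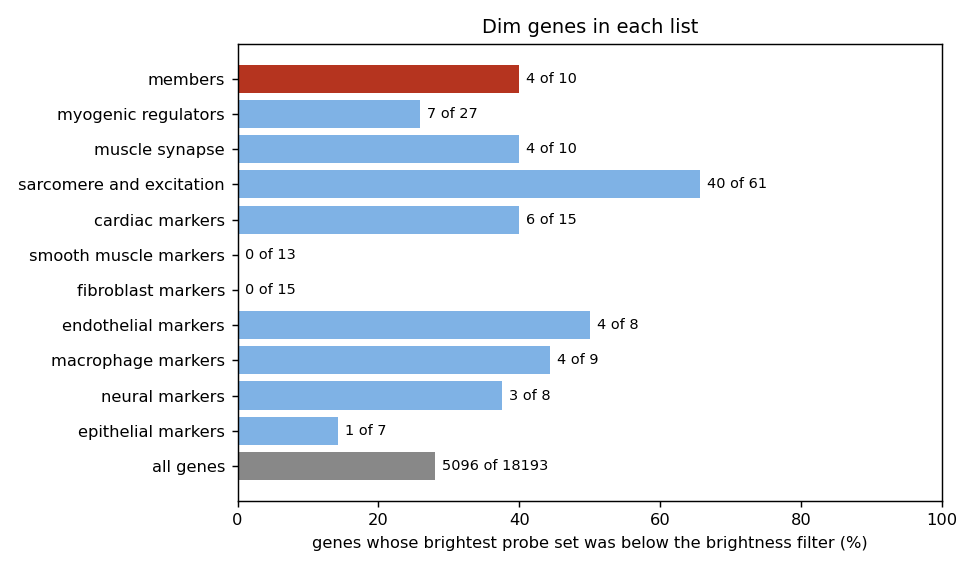
Share of genes in each list whose brightest probe set fell below the brightness filter, in percent, with counts beside the bars. Members stand at 40%, sarcomere and excitation genes at 65.6%, fibroblast and smooth muscle markers at 0% and all genes at 28%.

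Markers of the labelled cell type all lay above the brightness filter, though not all were bright on every array. All 15 fibroblast markers with a probe set were kept, 0 passed the threshold, and their normalized signals summed to between 49870 and 55970 in wild type and between 51180 and 54830 in RBP2-null cells. The deposited signal of Col1a1, a chain of type I collagen, was 4799 and 7788 in wild-type cells and 6804 and 7940 in RBP2-null cells. Those of the proteoglycan Lum were 27.9 and 121.7 against 51.5 and 473.9, and those of the receptor Pdgfra were 31.9 and 491.5 against 129.6 and 696.5, both lowest in wild-type replicate 1. The same sum over the 10 members was 305.1 to 371.3 in wild type and 332.9 to 356.3 in RBP2-null cells, so the summed signals of the members overlapped between genotypes.

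Desmin is also made by smooth muscle and Actc1 by heart muscle, so genes of both tissues were read too. All 13 smooth muscle genes were kept and 0 passed, with a median log2 fold change of 0.033 and sums of 25070 to 33410 in wild type and 25520 to 30510 in RBP2-null cells. Myh11, smooth muscle myosin, had deposited signals of 10.4 and 4.6 in wild-type cells and 33 and 38.8 in RBP2-null cells, and a log2 fold change of 1.34 (SE 0.50). Tpm2, a tropomyosin, had -0.46 (SE 0.22), Myocd, the coactivator of serum response factor, had 0.54 (SE 0.47), and Tpm1 had -0.18 (SE 0.18). Most of each smooth muscle sum came from Acta2, Tagln, Vcl, Tpm1 and Tpm2. Others were dim like Myh11, with deposited signals of 7.2 to 34.5 for Myocd and 10 to 33.8 for Synpo2. Over all lists read beside the members, Myh11 was the only kept gene with an unadjusted limma p under 0.05, at 0.026. Of 15 cardiac markers 9 were kept and 0 passed, with a median of -0.17. The developmental factor Tbx5 had -1.21 (SE 0.58), cardiac troponin T, Tnnt2, had -0.87 (SE 0.45), the heart and limb factor Hand2 had 0.61 (SE 0.38), and the natriuretic peptide Nppa had 0.70 (SE 0.67). With arrays centred on their medians, list medians relative to the shift of all kept probe sets were 0.21 for myogenic regulators, -0.080 for synapse genes, -0.033 for sarcomere genes, 0.091 for smooth muscle and -0.22 for cardiac markers.

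Markers of cell types other than muscle and fibroblasts had 0 genes past the threshold. Summed normalized signals of the 8 endothelial markers, a cell type that also makes Mef2c, were 158.5 to 187.2 in wild type and 170.4 to 204.5 in RBP2-null cells. The 8 neural markers summed to 1076 to 1234 and 980 to 1245, and the 7 epithelial markers to 653.2 to 850 and 535.8 to 689.3. Most of the neural sum came from Nes and Map2. Most of the epithelial sum came from Epcam, on a probe set that can bind several transcripts. Its normalized log2 values were 9.25 and 8.65 in wild type and 8.30 and 8.90 in RBP2-null cells. These sums are therefore not levels shared by all markers of a list. The sum of the 9 macrophage markers did not overlap, at 357 to 442 in wild type and 276.4 to 302.2 in RBP2-null cells. Only 5 of these 9 were kept, with 0 estimates above 0 and 5 below. Of the 5, 1 did not overlap between genotypes, where 29.5% of all kept probe sets did not. How often sums over other sets of genes fail to overlap was not tested. No marker of these lists was at 0 on every array, and the part of these cell types in the values of the members was not tested.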

How the data were processed

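RNA from 4 lines of mouse embryonic fibroblasts was labelled with biotin and hybridised to Affymetrix arrays, per the labels. The authors deposited linear intensity values, and neither labels nor header say how probes were summarised or corrected for background. Trimmed means of the arrays, leaving out 2% at each end, differed by up to 2.46 times, so values were quantile normalized. The pseudocount is the 25th percentile of all values, rounded. Genotypes were compared with lmFit and eBayes of limma 3.58.1 (R 4.3.3), using a mean-dependent prior variance, two-sided, with Benjamini-Hochberg adjustment. The procedure was run on simulated arrays with large changes planted in bright probe sets, and with less noise than the average prior of the fit. That run does not show how well smaller changes in dim probe sets, such as most members, are found. The number of arrays limits the precision. A platform annotation table gave 1 symbol for 34945 of 45037 probe sets, several for 932 and none for 9160. All member probe sets were named, and of each muscle list up to 4 genes with the smallest unadjusted p. Some other genes were named for their signal level. The members and lists were chosen with earlier results of these data known. Alternatives covered pseudocount, filter, scaling, variance model, probe set class, replicate number as a block, and each array left out.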

Additional observations from a re-analysis of the deposited data

How the results depend on the processing

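No member passed the threshold under any of the 13 alternatives, and 7 of the 10 kept probe sets kept their direction wherever they were kept. Brightest Mef2c reversed to 0.020 after median centring and to 0.22 without scaling, which is -0.16 relative to the median shift of 0.18 and 0.38 there. Des 1426732_at had 0.17 without scaling, or -0.22 relative to the shift. With an array left out in turn, these values ran from -0.54 to 0.42 for Mef2c 1421027_a_at, from -0.23 to 0.0038 for Des 1426732_at and from -0.13 to 0.66 for Actc1. The median over the kept members was 0.24 with median-centred arrays and 0.44 without scaling, both 0.058 relative to the shift, 0.46 without probe sets that can bind several transcripts, and -0.014 to 0.35 with an array left out. Of all probe sets, 2 passed after median centring, and 0 passed if the filter, the scaling or the mean-dependent variance was left out, where 1653, 189 and 945 had an unadjusted limma p under 0.05. With an array left out, 0 to 81 passed, the 81 without wild-type replicate 2. Members that did not overlap numbered 1 of 4 in the upper 40%, and 8 to 9 with an array left out, where 60.2% to 72.8% of all probe sets did not overlap. With the replicate number as a block, 49 probe sets passed, among them 0 members. The differences between lines numbered 2 and 1 correlated at 0.113 between genotypes over kept probe sets, and with 2 pairs and no stated litter or day the numbers were not taken as pairs. Calls of detection were not given, so what the dim probe sets can show is limited. The cause of these changes was not tested.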
